A study of Mus musculus with 18 samples.

Results

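The transcripts described here encode PGC-1 coactivators, estrogen-related receptors (ERRs), peroxisome proliferator-activated receptors (PPARs) with their partner receptor, and 2 regulators of mitochondrial gene expression. The 10 genes, of 18193 with a symbol of their own on the arrays, are Ppargc1a, Ppargc1b, Esrra, Esrrb, Esrrg, Ppara, Ppard, Rxra, Tfam and Nrf1, and every probe set annotated with 1 of these symbols and no other was taken. That gave 28 of the 45265 probe sets on the Affymetrix 430A and 430B chips, 18 on 430A and 10 on 430B, and 24 of them were bright enough to be tested, since a test was run on the brightest 60% of each chip. Every gene had at least 1 tested probe set. One more probe set, 1447902_at, carries the symbol Ppard beside another symbol and was left out.

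The RNA came from heart tissue of male Tet-myrAkt1/αMHC-tTA mice, 3 hearts in each of 3 groups, and each heart was hybridised to both chips. All groups carried both transgenes: a tetracycline-responsive gene for myristoylated, constitutively active Akt1, and the tTA activator under the αMHC promoter, which is active in heart muscle cells. The first group was sampled at 8 weeks of age before AAC, the operation that imposed pressure overload. The second was sampled 4 weeks after AAC, and its labels name no Akt induction. The third was sampled 6 weeks after AAC with Akt switched on, for 2 weeks by the sample descriptions and 3 weeks by the titles. These are called the Akt-on hearts below. Both later groups carry an age label of 12 weeks. No unoperated group of the later age was analysed here, so the operation and the passage of time cannot be told apart, and neither can Akt induction and the time between 4 and 6 weeks. Whether a sample was 1 heart or a pool is not stated, and the p-values measure the spread between these samples.

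PGC-1α and PGC-1β, the products of Ppargc1a and Ppargc1b, bind transcription factors rather than DNA and raise the transcription of genes for mitochondrial respiration and fatty acid oxidation. In heart muscle they work through the ERRs, which bind DNA mostly without a known natural ligand, and through the PPARs, which sense fatty acids and bind DNA as a pair with a retinoid X receptor such as the Rxra product. Downstream, Nrf1 encodes nuclear respiratory factor 1, a factor for nuclear genes of the respiratory chain, and Tfam encodes the factor that packages mitochondrial DNA and starts its transcription.

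Promoter windows are shown for Ppargc1a and Ppara, whose probe sets were lower in the Akt-on hearts, and for Tfam, which had the one member probe set that rose. They come from RefSeq on GRCm38.p6 and run from 250 bases before to 50 bases from an annotated transcription start. The table matched 9 of the 10 genes, with 15 windows. The 3 windows lie at chr5:51567676-51567975, minus strand, at chr15:85735526-85735825, plus strand and at chr10:71237995-71238294, minus strand. Capitals mark matches, on either strand, to any of 5 motifs: AAGGTCA (an ERR half-site), GCGCATGC (an NRF-1 core), CCGGAAG (an ETS core, bound by NRF-2), TGACGTCA (a cAMP response element) and TGTTTAC (a forkhead site).
Ppargc1a: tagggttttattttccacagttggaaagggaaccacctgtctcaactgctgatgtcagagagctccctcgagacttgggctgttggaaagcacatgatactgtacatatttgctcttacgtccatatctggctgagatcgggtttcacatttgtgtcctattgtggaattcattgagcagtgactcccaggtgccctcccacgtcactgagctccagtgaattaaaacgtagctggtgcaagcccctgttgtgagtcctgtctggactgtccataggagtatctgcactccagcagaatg
Ppara: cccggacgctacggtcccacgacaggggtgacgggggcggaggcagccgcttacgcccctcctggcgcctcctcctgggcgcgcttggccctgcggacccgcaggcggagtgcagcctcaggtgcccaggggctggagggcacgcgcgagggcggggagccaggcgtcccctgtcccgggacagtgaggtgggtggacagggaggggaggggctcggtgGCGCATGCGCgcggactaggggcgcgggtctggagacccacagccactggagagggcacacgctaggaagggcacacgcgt
Tfam: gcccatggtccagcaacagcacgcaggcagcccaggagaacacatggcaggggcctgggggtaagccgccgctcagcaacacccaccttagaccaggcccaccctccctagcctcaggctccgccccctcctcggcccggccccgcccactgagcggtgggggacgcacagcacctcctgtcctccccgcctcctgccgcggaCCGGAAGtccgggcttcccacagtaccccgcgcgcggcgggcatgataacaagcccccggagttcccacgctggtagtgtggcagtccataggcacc
The Ppargc1a window held none of the 5 motifs. In the Ppara window the NRF-1 core matched on both strands in an overlapping pair, at bases -31 to -24 and -29 to -22 from the start. The Tfam window held the ETS core at bases -47 to -41. Of the 32851 mouse windows of this length in the table, 2.71% held the NRF-1 core, 8.86% the ETS core, 4.72% the ERR half-site, 1.79% the cAMP response element and 3.65% the forkhead site. The Esrra window also held the NRF-1 core and 1 of the Rxra windows the ERR half-site, and the other member windows held none. Ppargc1a is known to have other transcription starts, which its window does not cover.

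The signal of the brightest Akt1 probe set of chip 430A was 708, 383 and 496 before AAC, 571, 821 and 917 at 4 weeks, and 2614, 3762 and 6535 in the Akt-on hearts, so every Akt-on heart carried more Akt1 transcript than every other heart (2.36 higher than at 4 weeks on the log2 scale, adjusted p = 0.00277, limma). The trimmed mean of an array was 500.19 to 500.22 on chip 430A and 122.51 on chip 430B, as the authors had scaled them. Replicate hearts correlated at 0.963 to 0.979 on 430A and 0.915 to 0.953 on 430B. The ratio of 3′ to 5′ control probe sets for β-actin and Gapdh, a measure of RNA integrity, averaged 0.336 to 0.711 on the log2 scale before AAC, -0.00809 to 0.0526 at 4 weeks and -0.124 to 0.0910 in the Akt-on hearts. The hearts before AAC thus stood apart from both later groups in this ratio, and in comparisons with them the ratio and the group can hardly be told apart. Both comparisons with the hearts before AAC are therefore counted with and without the ratio as a covariate. The covariate's effect on a single value is given for each member call against those hearts. Atrial transcripts differed widely within every group: their mean log2 signal was 8.72 to 14.4 before AAC, 8.09 to 14.0 at 4 weeks and 8.61 to 14.0 in the Akt-on hearts.

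Marker lists of cell types were measured in the same hearts. The summed signal of 10 cardiomyocyte markers was 235300 to 257500 before AAC, 192400 to 201800 at 4 weeks and 182200 to 222600 in the Akt-on hearts. Their median log2 difference from before AAC was -0.32 at 4 weeks and -0.32 in Akt-on hearts. With quantile normalization, which gives every array the same distribution of signals, it was 0.0065 and -0.04. The 2 markers that fell in each of these comparisons then no longer passed. For 8 endothelial markers the summed signal was 12380 to 13070, 8242 to 9383 and 7247 to 7831 in the same order of groups. For 8 fibroblast markers it was 34890 to 39910, 26400 to 42040 and 40860 to 64360, and 4 of the 8 rose in the Akt-on hearts relative to 4 weeks. For 7 macrophage markers it was 7868 to 8362, 5122 to 7024 and 5808 to 8442, and none passed the test in any comparison (limma adjusted p). Fat also uses PGC-1α and PPARs. The summed signal of the white fat list, of which 3 markers were tested and none passed, was 826 to 1031, 579 to 1115 and 591 to 1078. Adipoq, the adiponectin gene of white fat, ranged widely, from 30 to 209, 8 to 459 and 9.3 to 338, and Lep, another product of white fat, lay at 16.7 to 44.7, 10.6 to 40.8 and 17.2 to 43.0. The sum of the brown fat list was 36130 to 40430, 23470 to 30350 and 22660 to 25930, mostly from Cox8b and Cox7a1, which heart muscle also expresses. Of its 5 tested markers 1 rose in the Akt-on hearts against each other group, the lipid droplet gene Cidea. Cidea had 699 to 886, 617 to 774 and 1038 to 1197. Ucp1, which defines brown fat, had 33.4 to 89.3, 12.3 to 54.6 and 15 to 25.6. Ucp1 lay under the filter limit of 127 and was not tested. Dio2, also listed, did not pass by the probe set counted. Its probe sets had 43.8 to 83.8, 55.4 to 173.4 and 164.7 to 362.1. The next had 136.9 to 202.5, 130.1 to 148.9 and 155.6 to 224.2, and the last 158 to 218, 108 to 144 and 185 to 416.5. Prdm16 was lower in its brightest probe set, with 251 to 339, 199 to 271 and 125 to 215. Against before AAC, Cox8b (-0.72) and Cox7a1 (-0.79) fell in Akt-on hearts, and Cox8b fell at 4 weeks (-0.57). With quantile normalization the Cidea call against before AAC (0.45) and the Cox8b call at 4 weeks (-0.25) ended. Only 1 of the 8 skeletal muscle markers was tested, Ckm, which heart muscle also expresses. The part of these cell types in the member differences was not tested, and in tissue RNA fewer cells of a type and less RNA per cell cannot be told apart.

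Of the member probe sets that fell in the Akt-on hearts, 5 of 6 against either other group belonged to Ppargc1a and Ppara, and no member passed the test at 4 weeks. At 4 weeks against before AAC, 0 of the 24 tested probe sets passed (adjusted p under 0.05 over all 21856 tested probe sets, limma), where 5.58% of all tested probe sets did. At an unadjusted p under 0.05 there were 8, or 33.3%, where 22.9% of all tested probe sets were, and the smallest adjusted p was 0.0667, for Tfam 1448224_at. In the Akt-on hearts against 4 weeks, 6 of the 24 fell and 0 rose, where 3.3% of all tested probe sets passed in either direction. In the Akt-on hearts against before AAC, 6 fell and 1 rose, where 15% of all passed. The median log2 difference of the 24 was -0.17, -0.30 and -0.35 in these 3 comparisons, beside -0.02, 0.03 and 0.01 over all tested probe sets. Each pair of comparisons shares a group of hearts, so the 3 are not independent. Where groups are said below not to overlap, the share of all tested probe sets that separated in this way was not counted. With the 3′/5′ ratio as a covariate, both comparisons with the hearts before AAC had 0 passing probe sets among all those tested, members included, whereas Akt-on against 4 weeks had 488 in all and 4 among the members. Because the ratio itself separated the hearts before AAC from the later groups, this fit can hardly tell it from the group difference. No conclusion on the ratio is drawn from the lost calls.

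**Figure D1:**
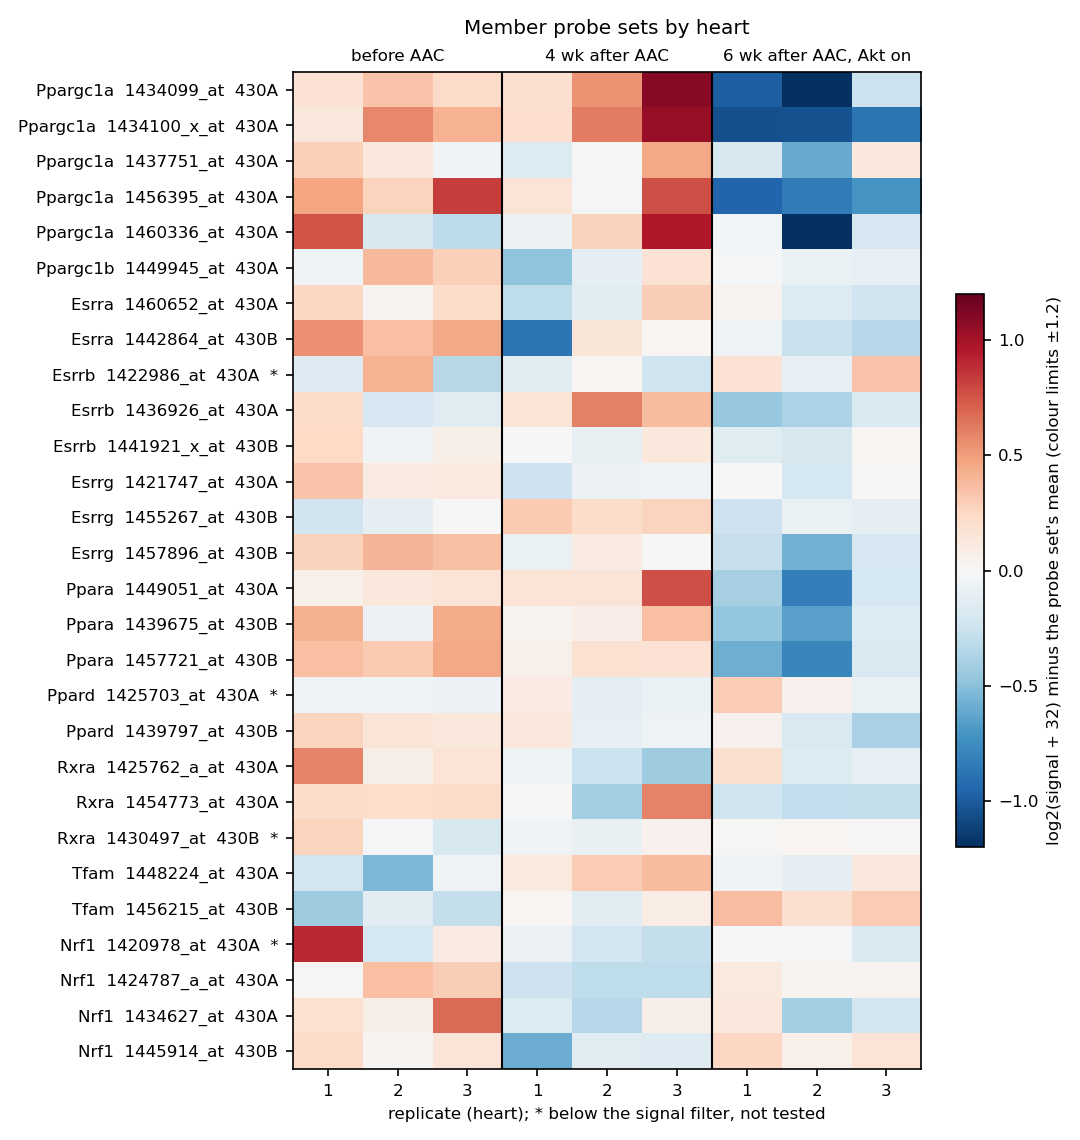
Each cell gives log2(signal + 32) of 1 member probe set in 1 heart, minus the mean of that probe set over the 9 hearts, with the groups in time order and probe sets grouped by gene. Colours run from blue (lower) to red (higher), and the Ppargc1a and Ppara rows are blue in most Akt-on hearts.

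Ppargc1a was measured by 5 probe sets, all on chip 430A and all past the signal filter. Of these, 3 fell in the Akt-on hearts against both other groups. Probe set 1434099_at had a signal of 242, 275 and 253 before AAC, 245, 319 and 485 at 4 weeks, and 89.8, 65.1 and 170.5 in Akt-on hearts. Every Akt-on heart lay below all 6 other hearts, while the hearts at 4 weeks overlapped those before AAC. The difference between Akt-on hearts and 4 weeks was -1.46 ± 0.28 (SE), adjusted p = 0.0174, or 2.76-fold lower.

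Probe set 1434100_x_at, designed from the same sequence record as 1434099_at and so no independent reading, had 277, 388 and 344 before AAC, 292, 400.4 and 552 at 4 weeks, and 104, 104 and 122 in Akt-on hearts. Its 3 Akt-on values lay close together and below every other heart. Akt-on hearts were 3.06-fold lower than at 4 weeks (-1.61 ± 0.21 (SE), adjusted p = 0.00306) and 2.58-fold lower than before AAC (-1.37 ± 0.21 (SE), adjusted p = 0.00233). The suffix _x_at marks probes that may also match other transcripts. The third, 1456395_at, from another record, had 992, 856 and 1275 before AAC, 791, 696 and 1229 at 4 weeks, and 349, 379 and 418 in Akt-on hearts. Again no Akt-on heart reached any other heart. It was 2.21-fold lower in Akt-on hearts than at 4 weeks (-1.14 ± 0.21 (SE), adjusted p = 0.0132) and 2.56-fold lower than before AAC (-1.36 ± 0.21 (SE), adjusted p = 0.0021).

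The other 2 Ppargc1a probe sets did not pass in any comparison. Probe set 1437751_at had 717, 637 and 566 before AAC, 517, 579 and 812 at 4 weeks, and 506, 370.5 and 637 in Akt-on hearts, with the groups overlapping throughout. Its difference between Akt-on hearts and 4 weeks was -0.32 ± 0.21 (SE), adjusted p = 0.445. Probe set 1460336_at had 1502, 762 and 700.4 before AAC, 831, 1068 and 1740 at 4 weeks, and 856, 365 and 758 in Akt-on hearts. Here replicate 2 of the Akt-on hearts was lowest and replicates 1 and 3 lay within the range of the other groups, and the difference against 4 weeks was -0.87 ± 0.35 (SE), adjusted p = 0.212. Of the 5, 1460336_at had the highest mean signal, so a choice of 1 probe set a gene by signal would have kept a probe set that did not pass. Replicate 3 was the highest of the 4-week hearts in all 5 probe sets, and without it the 1434099_at difference was -1.22 with an adjusted p of 0.0767 (limma). That call also ended without Akt-on replicate 2. The call of 1434099_at against before AAC (-1.11 ± 0.28 (SE), adjusted p = 0.0203) held in 6 of the 9 fits that left out a heart, and ended without replicate 2 or 3 before AAC or Akt-on replicate 2 (highest adjusted p = 0.0733, limma). The calls of 1434100_x_at and 1456395_at held with each of the 9 hearts left out in turn, in both comparisons. With the 3′/5′ ratio as a covariate, the differences of 1434099_at and 1456395_at from before AAC were -1.23 and -1.09 (adjusted p = 0.721 and 0.69, limma). Under it 1434100_x_at differed by -1.58 between Akt-on hearts and 4 weeks (adjusted p = 0.00605) and by -0.94 between Akt-on hearts and those before AAC (adjusted p = 0.718).

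Ppargc1b, the close relative of Ppargc1a, was measured by 1 probe set, 1449945_at, with 1474, 2008 and 1871 before AAC, 1082, 1418 and 1722 at 4 weeks, and 1501, 1449 and 1423 in Akt-on hearts. The 3 groups overlapped. Its log2 difference was -0.35 at 4 weeks against before AAC, 0.07 in Akt-on hearts against 4 weeks and -0.27 in Akt-on hearts against before AAC, with adjusted p-values of 0.25, 0.865 and 0.316. Whether Ppargc1a and Ppargc1b differ in their response was not tested.

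Ppara encodes PPARα, the main PPAR of fatty acid oxidation in heart muscle, and all 3 of its probe sets were past the filter. Probe set 1449051_at on chip 430A had 525, 550.5 and 569 before AAC, 568, 562 and 880 at 4 weeks, and 375, 270.2 and 431 in Akt-on hearts. The Akt-on hearts lay below all others, and replicate 3 at 4 weeks stood above its group. The Akt-on hearts were 1.79-fold lower than at 4 weeks (-0.84 ± 0.20 (SE), adjusted p = 0.0421). Against before AAC the difference was -0.59 ± 0.20 (SE), adjusted p = 0.0653, and did not pass.

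On chip 430B, 1457721_at had 537, 519.7 and 579 before AAC, 433, 472 and 469 at 4 weeks, and 264, 225 and 359 in Akt-on hearts. Akt-on hearts were again below every other heart, and the 4-week hearts were all below those before AAC. It fell against before AAC (-0.90 ± 0.16 (SE), adjusted p = 0.00469) and against 4 weeks (-0.66 ± 0.16 (SE), adjusted p = 0.0485). The third probe set, 1439675_at, had 497, 342 and 503 before AAC, 371, 385 and 474 at 4 weeks, and 253, 219 and 318 in Akt-on hearts. Its Akt-on hearts lay below the other 6. It fell against before AAC (-0.69 ± 0.19 (SE), adjusted p = 0.0267) and differed by -0.59 from 4 weeks, which did not pass (adjusted p = 0.113). The 2 calls against 4 weeks were near the threshold: each held in only 1 of the 9 fits that left out a heart. That of 1457721_at against before AAC held in all 9, and with the 3′/5′ ratio as a covariate it was -1.01 with an adjusted p of 0.67 (limma). The call of 1439675_at against before AAC held in 5 of the 9, and with the covariate the difference was -0.92 (adjusted p = 0.701, limma).

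**Figure D2:**
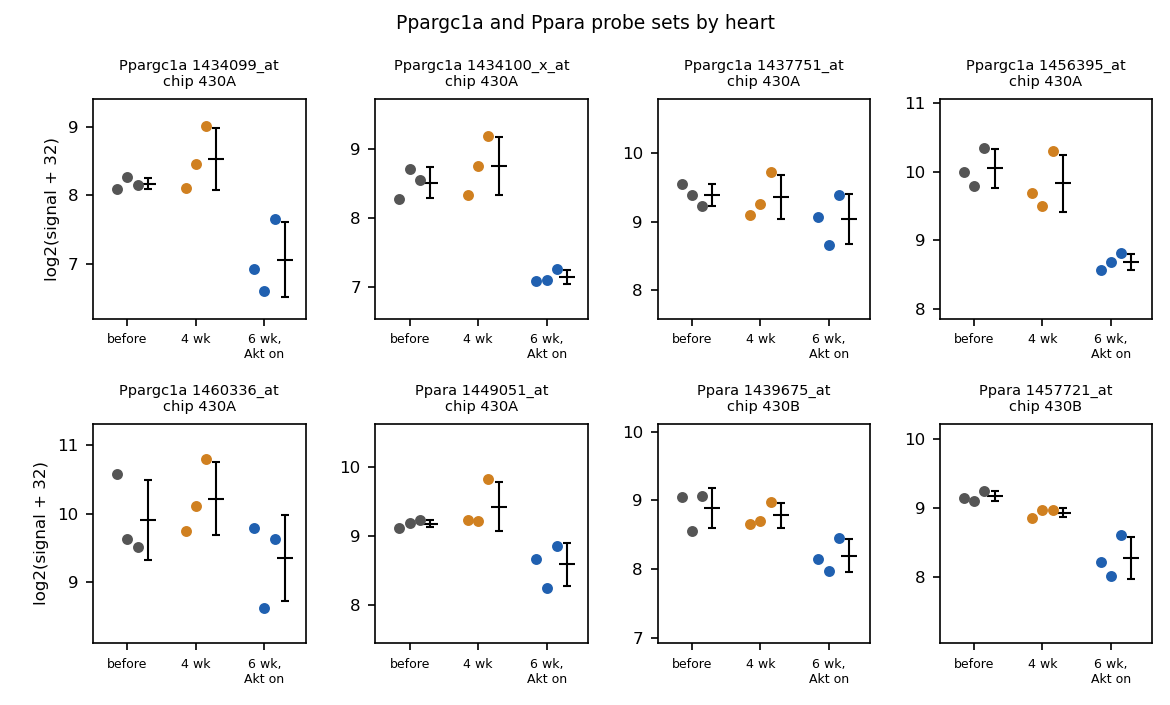
Each panel shows 1 probe set of Ppargc1a or Ppara, with log2(signal + 32) on the vertical axis, a dot for each heart and the group mean ± SD (n = 3) as a black bar to the right of the dots. All vertical axes span the same length, and the Akt-on hearts are lowest without overlap in 6 of the 8 panels, the exceptions being Ppargc1a 1437751_at and 1460336_at. How many of all tested probe sets separated in this way was not counted.

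Ppard and Rxra passed in no comparison. Ppard encodes PPARδ, which is widely expressed and shares many targets with PPARα. Its tested probe set 1439797_at had 359, 331 and 325 before AAC, 323, 273 and 281 at 4 weeks, and 306, 256 and 216 in Akt-on hearts, and the Akt-on hearts were all lower than those before AAC but overlapped those at 4 weeks. Akt-on hearts differed by -0.36 from those before AAC (adjusted p = 0.148) and by -0.16 from those at 4 weeks (adjusted p = 0.631, limma). Rxra encodes RXRα, the partner that PPARs need to bind DNA. Probe set 1425762_a_at had 466, 314 and 338 before AAC, 285, 243 and 213 at 4 weeks, and 343, 262 and 275 in Akt-on hearts, with all 4-week hearts below those before AAC (-0.53 ± 0.18 (SE), adjusted p = 0.111). Probe set 1454773_at had 484, 480.1 and 484 before AAC, 409, 302 and 637 at 4 weeks, and 344, 329 and 332 in Akt-on hearts. Its hearts before AAC were almost identical and all above the Akt-on hearts (-0.49 ± 0.21 (SE), adjusted p = 0.138), while the 4-week hearts spread over both.

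Among the ERRs, 1 probe set of Esrrb fell against 4 weeks and 1 of Esrrg fell against before AAC. Esrra encodes ERRα, the ERR most widely tied to mitochondrial genes. Probe set 1460652_at had 1307, 1122 and 1283 before AAC, 877, 991 and 1349 at 4 weeks, and 1128, 975 and 922 in Akt-on hearts, and overlapped between all groups. Probe set 1442864_at had 332, 287 and 309 before AAC, 104, 243 and 220.5 at 4 weeks, and 206, 175 and 164 in Akt-on hearts. Both later groups lay below the hearts before AAC. The log2 difference was -0.69 at 4 weeks (adjusted p = 0.102) and -0.68 in Akt-on hearts (adjusted p = 0.071), and neither passed. Replicate 1 at 4 weeks was the lowest of all hearts. Between Akt-on hearts and 4 weeks 1442864_at differed by 0.01 and 1460652_at by -0.07, and under quantile normalization the first was -0.02.

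Esrrb encodes ERRβ, best known in the mouse from stem cells and placenta. Its probe set 1436926_at had 333, 240.1 and 251 before AAC, 319.5, 444 and 377 at 4 weeks, and 197, 209 and 244 in Akt-on hearts. The Akt-on hearts were all below the 4-week hearts and overlapped those before AAC. The difference against 4 weeks was -0.72 ± 0.18 (SE), adjusted p = 0.0469, or 1.65-fold lower, and held in 2 of the 9 fits that left out a heart. At 4 weeks against before AAC the same probe set differed by 0.43 ± 0.18 (SE), adjusted p = 0.171, with overlapping hearts. Probe set 1441921_x_at had 379, 307 and 333 before AAC, 316, 295 and 348 at 4 weeks, and 283, 273 and 321 in Akt-on hearts, and its 3 differences lay between -0.19 and -0.08 with no call.

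Esrrg encodes ERRγ, which is abundant in heart and other tissues that burn fat. Its 3 tested probe sets did not move alike. Probe set 1457896_at had 255, 281 and 269 before AAC, 192, 221 and 204 at 4 weeks, and 163, 126 and 173 in Akt-on hearts. The 3 groups did not overlap and were lower at each later time. Only the difference between Akt-on hearts and those before AAC passed, at -0.70 ± 0.16 (SE), adjusted p = 0.0121, and it held with each heart left out, while with the 3′/5′ ratio as a covariate it was -0.61 with an adjusted p of 0.75 (limma). Probe set 1455267_at had 446, 487 and 529 before AAC, 668, 622 and 647 at 4 weeks, and 443, 502 and 486 in Akt-on hearts. There the 4-week hearts were above both other groups. Their log2 difference from before AAC was 0.39 (adjusted p = 0.103), and the Akt-on hearts differed from them by -0.41 (adjusted p = 0.112). Probe set 1421747_at had 332, 274 and 279 before AAC, 209.8, 240 and 244 at 4 weeks, and 255, 216 and 257 in Akt-on hearts. Its 4-week hearts were below those before AAC (-0.31 ± 0.15 (SE), adjusted p = 0.255), and its difference between Akt-on hearts and 4 weeks was 0.06, or -0.02 under quantile normalization.

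Tfam was the one member with a probe set that rose, in Akt-on hearts against before AAC. Neither of its probe sets passed at 4 weeks, although in both every 4-week heart lay above every heart before AAC. Probe set 1456215_at on chip 430B had 129, 165 and 146 before AAC, 189, 166 and 198 at 4 weeks, and 249, 215 and 235 in Akt-on hearts. The groups did not overlap and were higher at each later time. The Akt-on hearts were 1.49-fold higher than those before AAC (0.57 ± 0.16 (SE), adjusted p = 0.0282), and the call held in 5 of the 9 fits that left out a heart. With the 3′/5′ ratio as a covariate the difference was 0.89 with an adjusted p of 0.675 (limma). Probe set 1448224_at on chip 430A had 486, 382 and 552 before AAC, 623, 712 and 754 at 4 weeks, and 553, 528 and 631 in Akt-on hearts. Its 4-week hearts were all above those before AAC (0.54 ± 0.16 (SE), adjusted p = 0.0667), and the Akt-on hearts overlapped both groups.

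For Nrf1, all 3 tested probe sets were lower at 4 weeks than before AAC in every heart, 1434627_at only narrowly, and none passed. Probe set 1424787_a_at had 148, 199 and 188 before AAC, 119, 113 and 113 at 4 weeks, and 163, 151 and 152 in Akt-on hearts. The 4-week hearts lay below all others and differed by -0.51 from those before AAC (adjusted p = 0.12). Probe set 1445914_at had 244, 209 and 230 before AAC, 124, 183 and 179 at 4 weeks, and 248, 214 and 231 in Akt-on hearts. The 4-week hearts were again the lowest (-0.43 ± 0.17 (SE), adjusted p = 0.148, against before AAC), and the Akt-on hearts were all above them (0.45 ± 0.17 (SE), adjusted p = 0.176). Probe set 1434627_at had 281, 258.3 and 409 before AAC, 214, 185 and 258.2 at 4 weeks, and 269, 176 and 204 in Akt-on hearts. The highest 4-week heart and the lowest before AAC were thus nearly equal. Its Akt-on hearts spread over the range of the 4-week hearts, and the log2 difference of 1434627_at at 4 weeks against before AAC was -0.46 (adjusted p = 0.217).

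**Figure D3:**
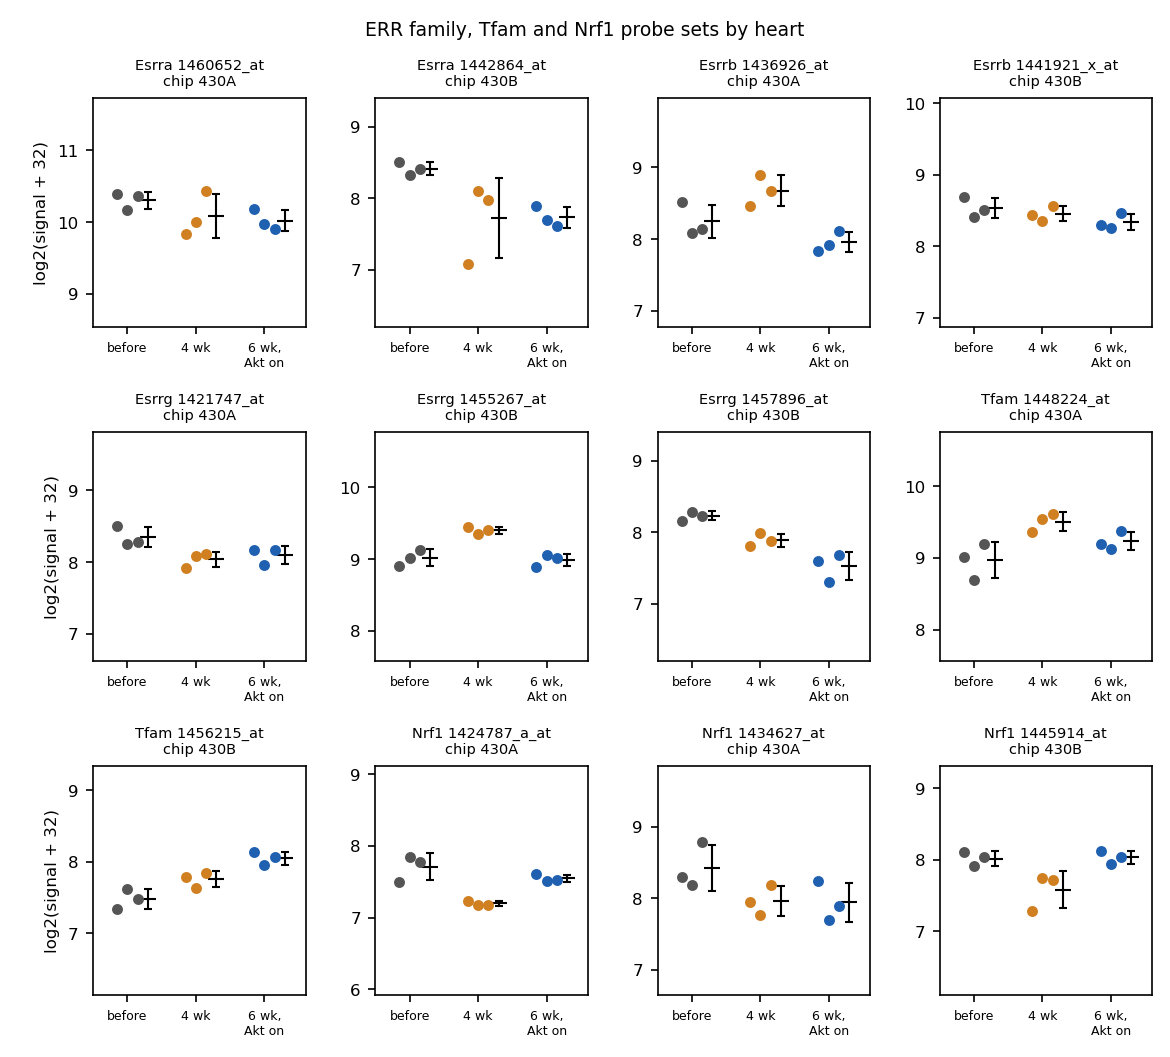
Each panel shows 1 tested probe set of the ERR genes, Tfam or Nrf1, with log2(signal + 32) on the vertical axis, a dot for each heart and the group mean ± SD (n = 3) as a black bar. All vertical axes span the same length. Esrrg 1457896_at is lower and Tfam 1456215_at higher in each later group without overlap, and the 3 Nrf1 probe sets are lower at 4 weeks than before AAC. No member passed the test at 4 weeks, and separation of this kind was not counted over all tested probe sets.

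The 4 probe sets below the signal filter were not tested. Nrf1 1420978_at had 83.9, 21.5 and 34.1 before AAC, 26.8, 20.8 and 18.8 at 4 weeks, and 28.8, 28.7 and 22.9 in Akt-on hearts, with 1 heart before AAC far above the rest. Ppard 1425703_at had 5.7, 5.6 and 5.3 before AAC, 9.8, 4.3 and 5 at 4 weeks, and 16.2, 8.4 and 4.9 in Akt-on hearts, and Rxra 1430497_at 22.1, 12.5 and 7.45 before AAC, 11.9, 10.3 and 14.8 at 4 weeks, and 13.5, 13.9 and 12.9 in Akt-on hearts. Both lay well under the filter limits of 127 on chip 430A and 47.3 on chip 430B. Esrrb 1422986_at had 91.7, 151 and 77.3 before AAC, 93.6, 108 and 84.4 at 4 weeks, and 123, 96.2 and 142 in Akt-on hearts, also under its limit and overlapping between groups.

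**Figure D4:**
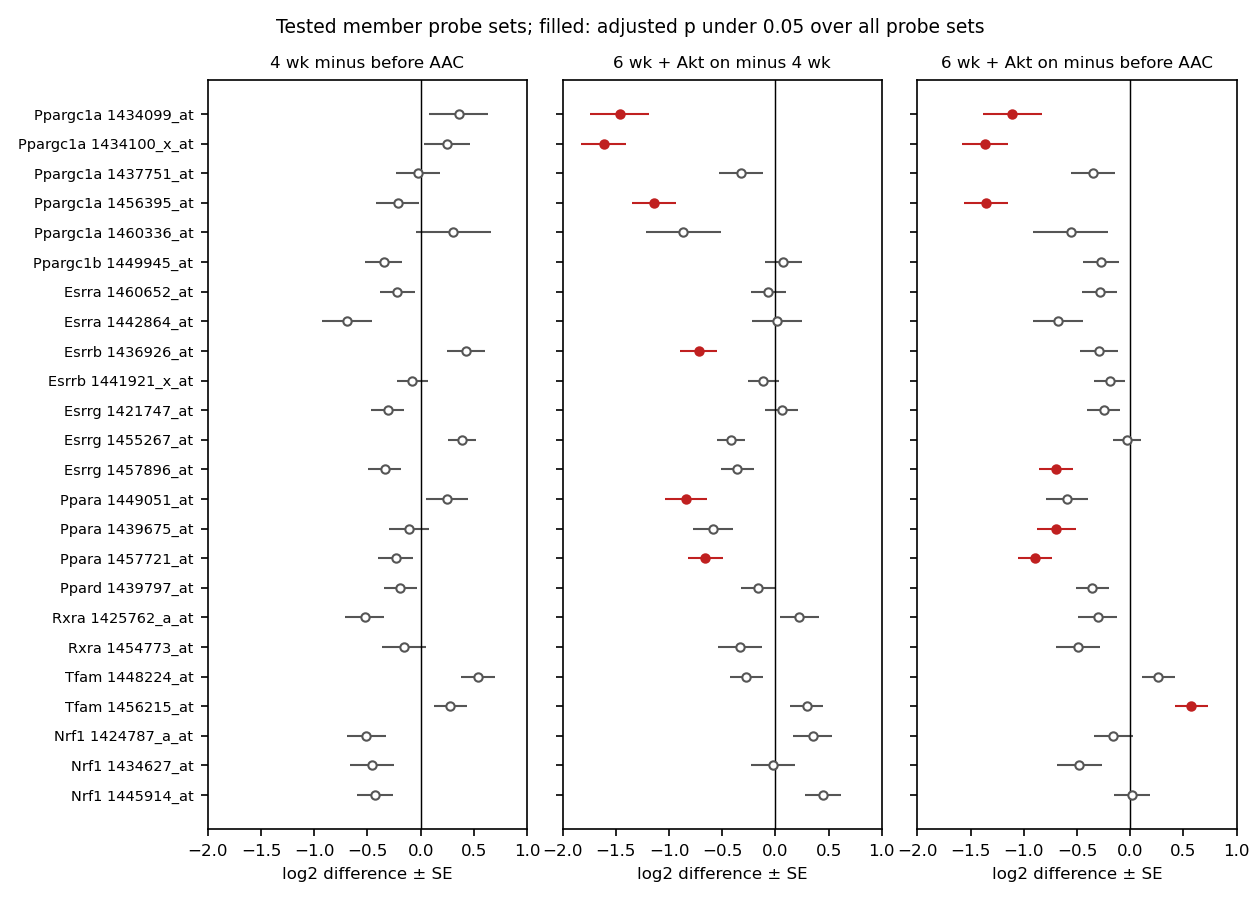
The points are the log2 differences of the 24 tested member probe sets in the 3 comparisons, with their standard errors as bars; filled red points passed at an adjusted p under 0.05. Passing points lie left of 0 apart from Tfam 1456215_at in Akt-on hearts against before AAC (0.57), and no point passed at 4 weeks against before AAC.

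For each gene, the genes with the most similar signal over the 9 hearts were looked up on the same chip, as a description over hearts that share groups. The search covered 8268 genes on chip 430A and 6677 on chip 430B, so high values arise from the choice itself. For Ppara 1449051_at they were Trpm7, an ion channel with a kinase domain (r = 0.98), the chemokine gene Cxcl14 (r = 0.98), and Ppargc1a 1434099_at itself (r = 0.97). For Tfam 1448224_at they included Tfb2m, another mitochondrial transcription factor gene (r = 0.94), and Rab6a (r = 0.94). For Ppard 1439797_at the closest was the clock gene Per3 (r = 0.95), for Rxra 1454773_at Usp2 (r = 0.96), and for Esrra 1460652_at the amino acid transporter gene Slc38a2 (r = 0.97), followed by Cox6a1 of the respiratory chain (r = 0.93). The closest to Ppargc1a 1460336_at was Arfrp1 (r = 0.96), to Ppargc1b Sf3a2 (r = 0.98), to Esrrb 1436926_at Zfp213 (r = 0.97), to Esrrg 1421747_at Helz (r = 0.97) and to Nrf1 1434627_at Huwe1 (r = 0.94).

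Lists of partner and target genes were counted with 1 probe set a gene. Over the 12838 genes, 2.69% rose and 2.44% fell at 4 weeks against before AAC, 1.61% rose and 2.11% fell in Akt-on hearts against 4 weeks, and 7.16% rose and 7.63% fell in Akt-on hearts against before AAC. The median difference over these genes was -0.04, 0.03 and -0.0034 on the log2 scale. Of the genes of these lists that passed, 0 of 17, 1 of 13 and 12 of 32 in these comparisons kept their call with each heart left out. With the 3′/5′ ratio as a covariate 0, 5 and 0 of them passed. With quantile normalization, which gives every array the same distribution of signals, 5, 7 and 24 of them passed, all in the same direction as before.

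The coactivator and kinase list holds partners of PGC-1 and enzymes that modify it. Of 26 tested genes, 2 rose and 0 fell at 4 weeks against before AAC: Ppp3cb, a calcineurin subunit (0.91, adjusted p = 0.0358), and Atf2, a factor that binds the Ppargc1a promoter (0.49, adjusted p = 0.0453). In the Akt-on hearts against 4 weeks 0 rose and only Atf2 fell (-0.52, adjusted p = 0.0469, limma). Against before AAC, Mef2d, a muscle transcription factor, fell (-0.61), while Prkag2, a subunit of the energy sensor AMPK, rose (0.89), as did Ppp3cb (0.79). Prkag2 had 509.8, 327 and 438 in Akt-on hearts against 215, 175 and 249.6 before AAC, without overlap, and its other tested probe set also rose. Ppp3cb turned direction with the 3′/5′ ratio as a covariate, to -0.18 at 4 weeks and -0.38 in Akt-on hearts, both against before AAC. Atf2 lost both calls with quantile normalization. The other tested probe sets of Ppp3cb, Atf2 and Mef2d did not pass. In Akt-on hearts against 4 weeks those of Mef2d differed by 0.34 and 0.03, opposite in direction to the named one (-0.48). The medians of the list were 0.04, -0.15 and -0.21, and the first was -0.0017 with quantile normalization. Of 8 tested corepressors, which oppose these receptors, 0 passed in any comparison, with medians of -0.16, 0.0027 (-0.02 with quantile normalization) and -0.13.

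Other nuclear receptors and linked factors numbered 14 tested genes. None passed at 4 weeks, and 3 fell and 0 rose in the Akt-on hearts against either group, with medians of -0.03, -0.14 and -0.42. Klf15, a Krüppel-like factor of lipid metabolism and no nuclear receptor itself, had 172, 225 and 298 in Akt-on hearts against 717, 416 and 856 at 4 weeks, without overlap. Its log2 difference was -1.37 ± 0.25 (SE, adjusted p = 0.0126, limma). Nr1d2, which encodes the clock repressor REV-ERBβ, had 1476, 1378 and 1207 against 2567, 2149.8 and 2745. It fell by 0.86 (SE 0.14, adjusted p = 0.00758, limma), with each heart left out too, although its other probe set did not pass. Rxrb, a relative of Rxra, had 404, 422 and 531 against 958, 634 and 886 and fell by 0.81. The log2 differences against before AAC were -0.87 for Klf15, -0.88 for Nr1d2 and -0.65 for Rxrb.

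PPAR target genes moved in both directions. Of 28 tested, 1 rose and 5 fell at 4 weeks against before AAC. Cat, the peroxisomal catalase, rose (0.82, adjusted p = 0.0207), while Ucp3 (-0.85), a mitochondrial uncoupling protein, the fatty acid oxidation genes Hadh (-0.59), Ech1 (-0.58) and Acadvl (-0.40), and the lipoprotein receptor gene Vldlr (-0.96) fell. With quantile normalization 1 rose and 2 fell, and the calls of Hadh (-0.32), Ech1 (-0.29), Acadvl (-0.18) and Vldlr (-0.97) ended. The other 4 tested probe sets of Vldlr differed by -0.47 to 0.49 at 4 weeks, and none passed (limma). Against 4 weeks, 4 rose and 1 fell in the Akt-on hearts (3 and 1 with quantile normalization, under which Ucp3 did not pass). Angptl4, an inhibitor of lipoprotein lipase, had 896, 518 and 444 in Akt-on hearts against 91.5, 228 and 35.9 at 4 weeks. It rose by 2.27 (SE 0.46, adjusted p = 0.0222, limma).

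Slc25a20, which carries acylcarnitines into mitochondria, had 4908, 3175 and 4315 against 2024, 2366 and 2678 and rose by 0.79. Cpt2, the next enzyme on that route, rose by 0.48 and Ucp3 by 0.71. Lpl, the lipase that Angptl4 inhibits, fell, with 13835, 15955 and 14789 against 19135, 21413 and 19872 (-0.44, adjusted p = 0.0394, limma), and both of its probe sets passed. Against before AAC 3 rose and 4 fell, among them Cat at 0.74, Slc25a20 at 0.62, Lpl at -0.73 (-0.42 with quantile normalization) and Vldlr at -1.66 (-1.45 to -0.28 for its other 4 probe sets, of which 2 passed). With quantile normalization 4 rose and 2 fell, and the calls of Hadhb (-0.10) and Ech1 (-0.10) ended. A second tested probe set passed for Slc25a20, Lpl and Ucp3 in at least 1 comparison, and none did for Cat, Cpt2 or Hadh. That of Slc25a20 rose at 4 weeks against before AAC (0.61, adjusted p = 0.0456, limma), where the named one differed by -0.16. In Akt-on hearts against 4 weeks it differed by 0.63 and did not pass (adjusted p = 0.0537, limma). The list medians were -0.18, 0.12 and -0.14, and -0.16, 0.13 and -0.03 with quantile normalization.

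ERR and PGC-1 targets, mostly genes of the citric acid cycle and the respiratory chain, held more genes that fell than rose in Akt-on hearts against before AAC. At 4 weeks which of them passed depended on the scaling of the arrays. Of 30 tested, 0 rose and 5 fell at 4 weeks, among them Cox6c (-0.67), Cox8b (-0.57), Sdhb (-0.60) and Cs, citrate synthase (-0.58). With quantile normalization 2 rose and 0 fell, since all 5 calls ended, with -0.26 for Cox6c, -0.25 for Cox8b, -0.26 for Sdhb, -0.43 for Cs and -0.07 for Mdh2, a citric acid cycle enzyme and the fifth that fell. Against before AAC, 1 rose and 11 fell in the Akt-on hearts, and 3 rose and 9 fell with quantile normalization. Cox8b, a subunit of cytochrome oxidase, had 14211, 16145 and 15333 against 25669, 25764 and 23895 and fell by 0.72 in log2 signal (adjusted p = 0.00212, limma), or -0.41 with quantile normalization. Mfn2, which fuses mitochondria, had 3132, 2376 and 2846 against 5001, 5279 and 4754 and fell by 0.85. Idh3a, a subunit of isocitrate dehydrogenase, rose (0.64), while its partners Idh3b (-0.49) and Idh3g (-0.49) fell, though Idh3g did not pass with quantile normalization (-0.31). In the Akt-on hearts against 4 weeks, where 3 of the 5 Ppargc1a probe sets fell, 0 of the 30 targets rose and 1 fell, Ndufs1 of complex I (-0.53, adjusted p = 0.0479), whose call ended with quantile normalization (-0.48). The other tested probe sets of Cox6c, Cs and Mfn2 passed in no comparison. At 4 weeks against before AAC that of Cox6c differed by 0.86, opposite in direction to the named one. Those of Cs differed by -0.31 and 0.16, that of Mfn2 by -0.64 and that of Mdh2 by -0.03, without a call. The list medians were -0.23, -0.07 and -0.33, and -0.0028, -0.08 and -0.10 with quantile normalization. The RNA ratio, the cardiomyocyte sum and the endothelial sum given above were all lower in the later groups than before AAC. Whether they have a part in the differences of these targets was not tested. The median difference of the cardiomyocyte list shrank with quantile normalization, as given above.

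Of 20 tested targets and subunits of NRF-1 and NRF-2, 1 rose and 3 fell at 4 weeks against before AAC. Tomm20 of the mitochondrial import pore rose (0.84), and Atp5c1 of ATP synthase (-0.50), Sdhb, counted on the previous list too, and Cox5a (-0.46) fell. With quantile normalization 2 rose and 0 fell, with -0.13 for Atp5c1 and -0.13 for Cox5a. The other tested probe sets of Cox5a differed by -0.08 and 0.55 at 4 weeks and that of Atp5c1 by -0.55, without a call. None passed in Akt-on hearts against 4 weeks. Against before AAC 0 rose and 5 fell (2 and 3 with quantile normalization, under which Ndufs8 did not pass). Ndufs8 (-0.58) and the NRF-2 subunit gene Gabpb2 (-0.53) were among the 5. In this comparison the other tested probe sets of Ndufs8 differed by -0.48 to 0.01, and none passed. Those of Gabpb2 differed by -0.23 to 0.14, also without a call. The list medians were -0.28, -0.04 and -0.24, and 0.03, -0.06 and -0.01 with quantile normalization.

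The list for mitochondrial DNA transcription and replication had 24 tested genes. At 4 weeks 1 rose and 0 fell: Trmt10c, a subunit of mitochondrial RNase P, had 234, 228 and 239.6 at 4 weeks against 74.6, 79.3 and 90 before AAC, a rise of 1.23 (SE 0.20, adjusted p = 0.0113, limma). Every heart before AAC lay under the filter limit of 127 on chip 430A, so this probe set was tested only through the signal of the later hearts. Between Akt-on hearts and 4 weeks 0 rose and 3 fell. These were Twnk, the mitochondrial DNA helicase (-0.57, adjusted p = 0.042), Lrpprc, which stabilises mitochondrial mRNAs (-0.60, adjusted p = 0.0479), and Hsd17b10, another RNase P subunit (-0.54, adjusted p = 0.0497). All 3 calls ended with quantile normalization, at -0.49, -0.59 and -0.51. Against before AAC Trmt10c (0.77) and Elac2, which trims mitochondrial tRNAs (0.67), rose and Lrpprc (-0.63) fell. The medians were 0.18, -0.28 and -0.03.

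**Figure D5:**
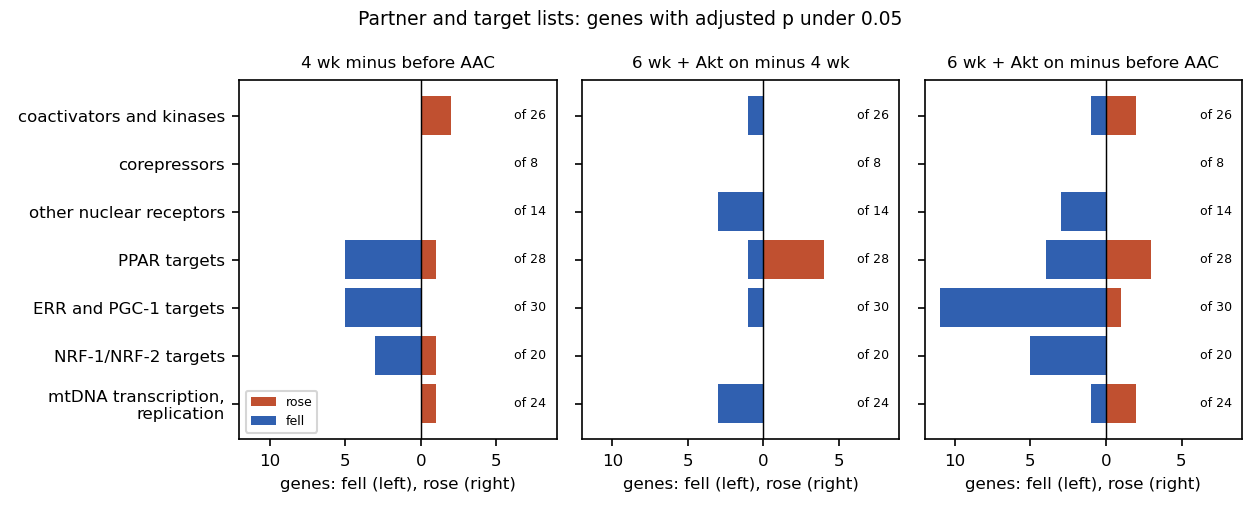
Bars count the genes of each list that rose (right, red) or fell (left, blue) at an adjusted p under 0.05 in the 3 comparisons, with the number tested at the right. The longest bar is the 11 ERR and PGC-1 targets that fell in Akt-on hearts against before AAC. In that comparison 0 genes passed with the 3′/5′ ratio as a covariate, which can hardly be told apart from the group there. With quantile normalization this longest bar would be 9, and the 5 ERR and PGC-1 targets and 3 NRF targets that fell at 4 weeks would be 0.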

How the data were processed

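The authors deposited 1 signal intensity per probe set and array on a linear scale, made with MAS5 per the submitters' processing notes; no version is given in the sources used here. RNA was extracted with Ultraspec-II reagent and biotin-labelled by the Affymetrix procedure, per the labels' protocols. The 9 hearts gave 18 arrays, grouped by their labels; replicate 3 at 4 weeks has the number 1 in its description. Gene symbols came from the platform annotation, and 35041 probe sets had a single symbol.

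Arrays of a chip were brought to their average trimmed mean (2% off each end) and turned into log2(signal + 32), which understates changes of dim probe sets. Probe sets among the highest 60% by mean signal were tested with limma 3.58.1 in R 4.3.3 (lmFit, eBayes with a variance trend) over all 9 hearts, with Benjamini-Hochberg adjustment over both chips and a threshold of 0.05. Lists used 1 probe set a gene, chip 430A first, then the highest mean. The fit was tested on simulated data. Precision is limited by the number of arrays. The same-numbered hearts of different groups correlated at -0.228 to 0.133 in their deviations, with 1 of 9 pairs over 0.1, so numbers were not used as pairs. Named list genes are up to 4 per list and comparison with the smallest p, plus those needed to name small counts or contrasts, chosen after their values were seen. The members and lists were chosen with earlier results of these data known. Alternatives covered the pseudocount, normalization, filter, probe set choice, variance trend, replicate block, adjustment, chip scale, atrial and 3′/5′ covariates, the averaging of 4-week replicates 1 and 3, each left-out heart and a fit of the compared groups alone.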

Additional observations from a re-analysis of the deposited data

How the results depend on the processing

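Hearts number 3 a group, so the calls nearest the threshold depend on single hearts. At 4 weeks against before AAC the count of passing member probe sets was 0 under every alternative except adjustment within each chip, which gave 1. For Akt-on hearts against 4 weeks it was 6, and 3 with no filter, 2 with 1 probe set a gene, 3 with no variance trend, 3 when 4-week replicates 1 and 3 were averaged, 2 when the fit held only the compared groups, and 2 to 5 with a heart left out, the lowest without 4-week replicate 3 and without Akt-on replicate 2. For Akt-on hearts against before AAC it was 7, and 0 with 1 probe set a gene, 0 with the 3′/5′ ratio as a covariate, and 4 to 9 with a heart left out, the lowest without replicate 3 before AAC. Choosing 1 probe set a gene lowers the count by its construction, since fewer member probe sets are tested. The cause of the other changes was not tested. The replicate block gave 0, 4 and 7.

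Over all probe sets, the passing number at 4 weeks against before AAC was 1220, and 1042 with quantile normalization, 680 with no filter, 585 with 1 probe set a gene, 574 with the replicate block, 618 with averaged replicates and 0 with the 3′/5′ ratio. For Akt-on hearts against 4 weeks it was 721, and 442 with no filter, 448 with no variance trend, 454 with the replicate block, 382 with averaged replicates and 261 with only the compared groups. For Akt-on hearts against before AAC it was 3283, and 1878 with 1 probe set a gene and 0 with the 3′/5′ ratio. With a heart left out the lowest numbers were 133, 254 and 1601.

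Member differences that changed sign had passed in no case. With the 3′/5′ ratio as a covariate, the log2 difference at 4 weeks against before AAC became 0.19 for Ppargc1b, -0.50 for Ppargc1a 1460336_at, 0.032 for Ppargc1a 1456395_at, 0.041 for Rxra 1454773_at, -0.17 for Esrrb 1436926_at and 0.24 for Nrf1 1434627_at. In Akt-on hearts against before AAC it became 0.31 for Ppargc1b, 0.27 for Nrf1 1434627_at, 0.26 for Nrf1 1424787_a_at, 0.14 for Esrrg 1455267_at and -0.0099 for Nrf1 1445914_at, which was -0.0095 with the atrial score. In Akt-on hearts against 4 weeks Nrf1 1434627_at became 0.031 with the ratio and 0.027 with averaged replicates, Esrra 1442864_at became -0.020 under quantile normalization and -0.084 with averaged replicates, and Esrrg 1421747_at became -0.025 under quantile normalization. With a heart left out the range was -0.21 to 0.10 for Ppargc1a 1437751_at and -0.42 to 0.078 for Rxra 1454773_at at 4 weeks against before AAC. It was -0.099 to 0.23 for Ppargc1b, -0.20 to 0.10 for Esrra 1460652_at, -0.17 to 0.097 for Nrf1 1434627_at and -0.31 to 0.20 for Esrra 1442864_at in Akt-on hearts against 4 weeks. It was -0.087 to 0.029 for Esrrg 1455267_at and -0.036 to 0.066 for Nrf1 1445914_at in Akt-on hearts against before AAC. Over single member differences, 1493 alternative values kept direction and call, 64 lost the call, 10 gained one and 32 changed sign. Among the lists, scaling and the covariate were tried after seeing the data. Ppp3cb changed sign with the 3′/5′ ratio as a covariate, to -0.18 at 4 weeks and -0.38 in Akt-on hearts against before AAC. With quantile normalization no passing list gene changed sign, but 5 of 17, 7 of 13 and 24 of 32 kept their call in the 3 comparisons.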
